A study of Rattus norvegicus with 8 samples.

Results

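Nrsn2, Tmem91, Dapk1, Bex1, Gnmt, Cpxm1 and Bend5 are 7 genes outside the families usually followed in motoneurons. They were chosen by their large falls in intensity between postnatal day 1 (P1) and postnatal day 21 (P21) in laser-captured spinal motoneurons of the rat. The rule took every probe set whose only platform-annotated symbol is 1 of these genes, which gave 9 of the 31042 probe sets in the table, 2 each for Tmem91 and Dapk1 and 1 each for the other genes. Because the same P21 and P1 arrays selected the genes, their falls are described here without a test.

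Both groups were Wistar albino rats of the same 4 litters, untreated as far as the labels state, at P1 while motor axons are being myelinated and at P21 when myelination is complete. Each of the 4 arrays per age (Affymetrix RAE230 2.0) held 1 pool of 4 rats, with 1500 to 2000 lumbar motoneurons cut from sections stained with cresyl violet. The cells were recognised by that stain alone, and about 50 ng of RNA was amplified in 2 rounds. All 9 motoneuron markers measured, among them Chat and Slc18a3, were above the filter level (below) on at least 1 array of each age. Levels are linear intensities as deposited, with n = 4 arrays per age, and errors on intensities are SD. Changes are given as the difference P21 minus P1 in log2(intensity + 16), with their standard errors.

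The genes belong to different parts of the cell. Nrsn2 (neurensin 2) and Tmem91 (also called SynDIG3) encode small neuronal membrane proteins, the former of vesicles and the latter of the dispanin family, whose member SynDIG1 binds AMPA receptors at excitatory synapses. Dapk1 encodes a calcium- and calmodulin-regulated kinase that can promote cell death and autophagy, and Bex1 a small X-linked protein that binds the intracellular part of the p75 neurotrophin receptor. Gnmt (glycine N-methyltransferase) uses S-adenosylmethionine to methylate glycine and is best known from liver. Cpxm1 encodes a secreted member of the carboxypeptidase family that lacks residues needed for catalysis, and Bend5 a BEN domain protein that binds DNA and can repress transcription.

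Promoter windows are shown for Dapk1, Cpxm1 and Gnmt because they held different numbers of the GC box, a short motif bound by Sp family factors. The windows run from 250 bases before to 50 after the RefSeq start on assembly GRCr8, are written 5′ to 3′ on the gene's own strand, and have the GC box (GGGCGG or its reverse complement) in capitals. The windows are Dapk1 at chr17:4096532-4096831 on the minus strand, Cpxm1 at chr3:138048394-138048693 on the minus strand and Gnmt at chr9:21752032-21752331 on the plus strand.
Dapk1: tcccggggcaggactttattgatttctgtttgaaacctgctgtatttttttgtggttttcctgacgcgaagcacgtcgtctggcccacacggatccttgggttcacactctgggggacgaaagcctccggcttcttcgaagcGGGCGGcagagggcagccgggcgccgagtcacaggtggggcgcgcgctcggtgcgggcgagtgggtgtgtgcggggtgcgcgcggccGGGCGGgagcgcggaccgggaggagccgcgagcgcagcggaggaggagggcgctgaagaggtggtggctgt
Cpxm1: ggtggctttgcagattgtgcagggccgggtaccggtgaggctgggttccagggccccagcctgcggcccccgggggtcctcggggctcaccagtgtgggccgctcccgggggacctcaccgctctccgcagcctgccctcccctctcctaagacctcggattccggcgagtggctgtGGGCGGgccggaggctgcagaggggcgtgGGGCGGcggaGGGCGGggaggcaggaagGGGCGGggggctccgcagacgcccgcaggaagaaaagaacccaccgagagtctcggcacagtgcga
Gnmt: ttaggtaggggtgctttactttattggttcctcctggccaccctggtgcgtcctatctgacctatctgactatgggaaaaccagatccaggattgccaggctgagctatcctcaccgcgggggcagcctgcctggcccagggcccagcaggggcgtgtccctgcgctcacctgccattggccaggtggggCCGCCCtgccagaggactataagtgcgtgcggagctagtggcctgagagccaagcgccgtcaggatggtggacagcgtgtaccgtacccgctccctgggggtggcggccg

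Of the 7 genes, 6 had a window in the RefSeq table and Bex1 had none. Tmem91 had 8 windows from alternative starts, and the other 5 genes had 1 each. All 6 genes held a GC box in at least 1 window, 4 copies in Cpxm1, 2 each in Dapk1 and Nrsn2, 1 each in Gnmt and Bend5, and 1 copy in 1 of the 8 Tmem91 windows. Of all 21842 windows of protein-coding genes, 41.8% held it. That is a share of windows, and the count of genes cannot be set against it, since Tmem91 had 8 windows. Searched the same way on both strands, TATAAA was in 0 of the 13 windows (13.0% of all windows) and TAATTA, a homeodomain core, in 0 (4.74%). CCAAT was in Gnmt, with 2 copies, and in Bend5 with 1 (38.0% of all windows), and the E-box CAGGTG was in Gnmt, with 2 copies, and in Dapk1, Nrsn2 and 2 Tmem91 windows with 1 each (18.9%).

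The windows differed in CpG content. Dapk1 had 34 CpG dinucleotides, at the 91.5th percentile of all windows, Cpxm1 had 25 and Bend5 22, against a median of 11 over all windows. Gnmt (15) and Nrsn2 (12) lay nearer that median, and the Tmem91 windows had 8 to 18. Cpxm1 had the highest G and C content of these genes (73.0%) and Tmem91 windows the lowest (49.7%), with a median of 55.0% over all windows. The array data do not measure methylation or binding at these windows.

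**Figure D1:**
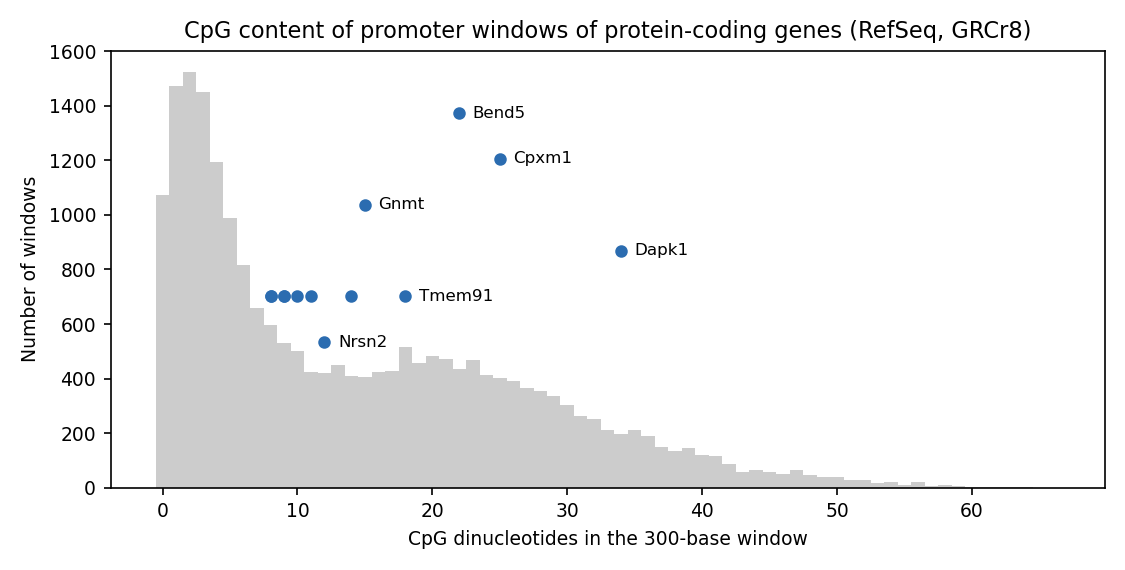
CpG dinucleotides in the promoter windows of protein-coding genes (grey bars, number of windows on the y axis), with the windows of 6 genes as blue points placed at their counts on the x axis; the height of the points has no meaning. Dapk1 (34) lies farthest to the right and the Tmem91 windows spread from 8 to 18.

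At P21, 6 of the 7 genes read so low that their best probe set lay under the 40th percentile of all probe sets on every P21 array, and Bex1 alone kept a clear signal. That percentile is the filter level, an intensity between 220.8 and 287.3 depending on the array, and a gene under it has only an upper bound there. Such falls are therefore also expressed as a lower bound ("at least" so many fold), which sets the mean log2 value at P1 against the mean log2 filter level of the P21 arrays. In all 9 probe sets the 4 P21 intensities lay below the 4 P1 intensities, as they did in 12.7% of all probe sets, and nothing can be read from that count because the falls chose the genes. In pools of this kind, fewer cells that make a transcript and less transcript per cell cannot be told apart.

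Nrsn2 read 1319, 1032, 1376 and 1481 on P1 replicates 1 to 4. On the P21 replicates it read 25.1, -51.8, 119 and 86.9. The P1 mean was 1302 ± 192 and the P21 mean 44.9 ± 75.4, a change of -4.57 ± 0.59 and a fall of at least 4.50-fold. The P21 readings scattered around 0, so the size of the fitted change rests on the constant of 16. The bound uses the same constant but not the P21 readings. Among the 10961 genes tested, ordered from the deepest fall, Nrsn2 had rank 4.

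Tmem91 fell on its bright probe set from 1730, 1793, 1650 and 1963 at P1 to 50.5, 49.1, 115 and 83.6 at P21. The change was -4.37 ± 0.22, at least 6.18-fold, and the P1 arrays varied little (SD 7.46% of the mean). The second Tmem91 probe set was dim on every array, with 171, 148, 144 and 136 at P1 and 85.8, 84.5, 85.9 and 72.9 at P21. All 8 of those readings were under the filter level, so the lower P21 values (change -0.75 ± 0.11) carry no fold. That change comes from the fit without the filter, and the probe set was left out of the filtered fit used for ranks and relatives. The other 8 probe sets passed the filter, in the 7 whose P21 readings were all under it through their P1 arrays alone.

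Dapk1 read 1750, 1688, 1962 and 2076 at P1 and 109, 130, 146 and 141 at P21 on the brighter probe set. Among the best probe sets this was the most even fall from replicate to replicate, at -3.68 ± 0.12 and at least 6.46-fold, and same-numbered arrays gave -3.83, -3.55, -3.61 and -3.73. The second Dapk1 probe set read 758, 305, 593 and 506 at P1 and 25.7, 42.1, 23.1 and -22.5 at P21. It was dimmer and more variable at P1 (SD 35% of the mean, against 9.68% for the first), and its change was -3.92 ± 0.41, at least 1.82-fold. All P21 readings of both probe sets were under the filter level, so the fitted changes depend on the constant added, and with 64 in place of 16 they were -3.30 and -2.77.

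Bex1 was the brightest of the 7 genes at P1, between the 97.2nd and 97.6th percentile of each array. It read 4947, 5122, 5330 and 5189 at P1 and 707, 633, 1265 and 1185 at P21, a change of -2.49 ± 0.22. At P21 it stayed above the filter level on all 4 arrays, between the 61.8th and 75th percentile, so its 5.60-fold fall is measured at both ages. P21 replicates 3 and 4 read higher than replicates 1 and 2. By rank of fitted change Bex1 was only at 68 of 10961, behind the other 6 genes, whose P21 levels were at the floor.

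Gnmt, the dimmest of the 7 at P1, read 476, 535, 638 and 668, between the 55.0th and 64.3rd percentile. At P21 it read -18.7, -12.0, 158 and 17.5, a change of -4.08 ± 0.68 and at least 2.03-fold. P21 replicate 3 stood away from the other 3, and the change was -4.85 without it. Same-numbered arrays gave -4.94, -5.11, -1.91 and -4.35, the widest spread among the best probe sets of the 7 genes.

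Cpxm1 read 1368, 872, 1422 and 1257 at P1, with replicate 2 the lowest, and 62.8, 49.6, 71.5 and 17.6 at P21. The change was -4.29 ± 0.30, at least 4.21-fold. Bend5 read 568 on P1 replicate 1 and 789, 793 and 798 on the other P1 arrays, and 21.8, 9.14, 43.3 and 3.00 at P21. Its change was -4.54 ± 0.32, at least 2.57-fold. By fitted change Bend5 (rank 5) stood ahead of Tmem91 (rank 7), Cpxm1 (rank 8), Gnmt (rank 10) and Dapk1 (rank 16), whereas Dapk1 and Tmem91 had the largest bounds. The order of the 6 genes under the filter level was therefore not measured.

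**Figure D2:**
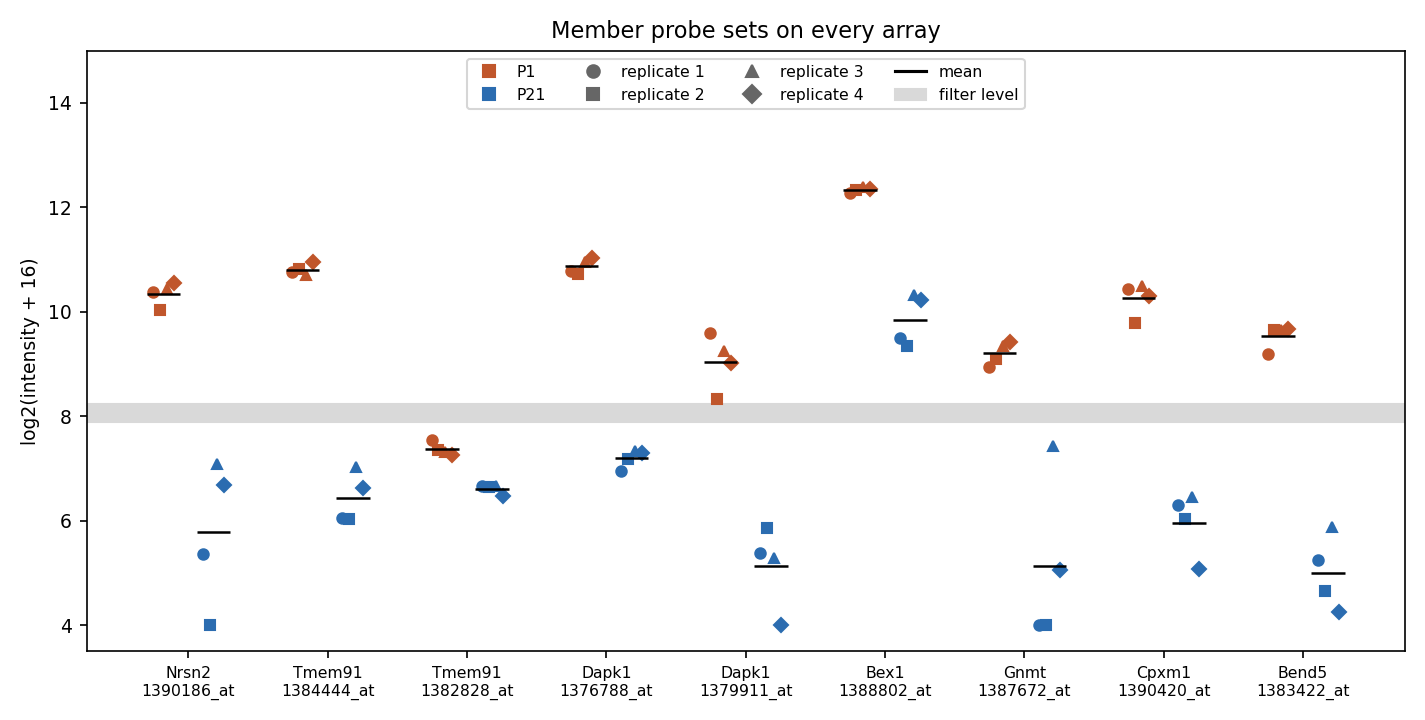
The 9 probe sets of the 7 genes on every array, as log2(intensity + 16) on the y axis, with P1 in orange, P21 in blue, a symbol per replicate, a line at each mean and the range of filter levels in grey. Bex1 is the one gene whose P21 points stay above the grey band, and both ages of the dim Tmem91 probe set lie under it.

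The order of the arrays within an age was not used to choose the members. On their best probe sets all 7 genes read highest among the P21 arrays on replicate 3. That array was the highest P21 array for 49.1% of the 1906 genes that passed as lower at P21 and for 38.3% of all genes tested. At P1, 5 of the 7 read highest on replicate 4 and the other 2, Bex1 and Cpxm1, on replicate 3. P1 replicate 4 was the highest P1 array for 46.4% of the genes that passed as lower and for 34.1% of all genes tested. Among the P21 arrays, replicate 3 had the highest summed markers of motoneurons (57400, against 51158 to 53127), astrocytes (30477, against 25827 to 29401) and oligodendrocytes (39180, against 36782 to 38619). It had the lowest sums for microglia (4684) and fibroblasts (12698), and its sums for interneurons (4304, others 2908 to 4536), vessels (5992, others 5198 to 10321) and dividing cells (4104, others 3942 to 5722) lay between those of the others. The part of these differences in the result was not tested. Without P21 replicate 3 the changes lay between -2.64 for Bex1 and -5 for Nrsn2 on the best probe sets.

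Deviations of each array from the mean of its age were correlated between the genes over the 8 arrays, as a description. Nrsn2, Tmem91, Gnmt and Bex1 were alike, with r between 0.79 and 0.95 in their 6 pairs, and Nrsn2 and Bex1 were the closest pair. These genes were grouped after the values of r were seen, so nothing can be read from that range. Cpxm1 stood apart from most of them, with r of -0.25 to Bex1, -0.09 to Nrsn2 and -0.07 to Tmem91 but 0.69 to Bend5. Over all 21 pairs the median was 0.62. The points share 8 arrays, and P21 readings near 0 are mostly noise on the log scale.

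Genes with the closest pattern to each member were taken by Pearson's r of log2 values over the 8 arrays. For Nrsn2 they were Caly (r = 0.998), the gene of the endosomal protein calcyon, and Astn1 (0.998), a neuronal adhesion gene of migration. For Tmem91 they were Necab2 (0.998), a neuronal calcium-binding protein gene, and Lypd3 (0.998). For Dapk1 they were the potassium channel gene Kcnd2 (0.999) and Dcx (0.999), doublecortin of migrating and young neurons. For Bex1 they were Syt16 (0.999) and Tmem97 (0.998), for Cpxm1 Olfm1 (0.997) and Hmgb3 (0.996), for Gnmt Smarcd3 (0.992) and Ccr6 (0.990), and for Bend5 Slc35g2 (0.996) and Tet1 (0.996). Such values are common here, since between 293 and 651 of 10960 genes exceeded 0.95 with each member. For the pairs named, r of the deviations from the age means was between 0.80 and 0.99. Nothing can be read from those values, because the genes were picked by r over the same 8 arrays.

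Relatives of the 7 genes were then compared between the ages with limma over all 8 arrays, p-values being adjusted over all 19155 probe sets that passed the filter and an adjusted p under 0.05 counting as a pass. Each gene was represented by its brightest such probe set, 17.4% of the 10961 genes were lower at P21 and 22.0% higher, and the median change was 0.05. With arrays centred on their medians those shares were 21.7% and 14.4% and the median was -0.09, so signs of small changes depend on the scaling. Among the 66 relatives tested there were 20 falls, 18 rises and 28 that did not pass, and the median change was -0.01. Of the 38 that passed, 27 passed under every alternative in which they were tested. Each p below is limma's adjusted p.

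**Figure D3:**
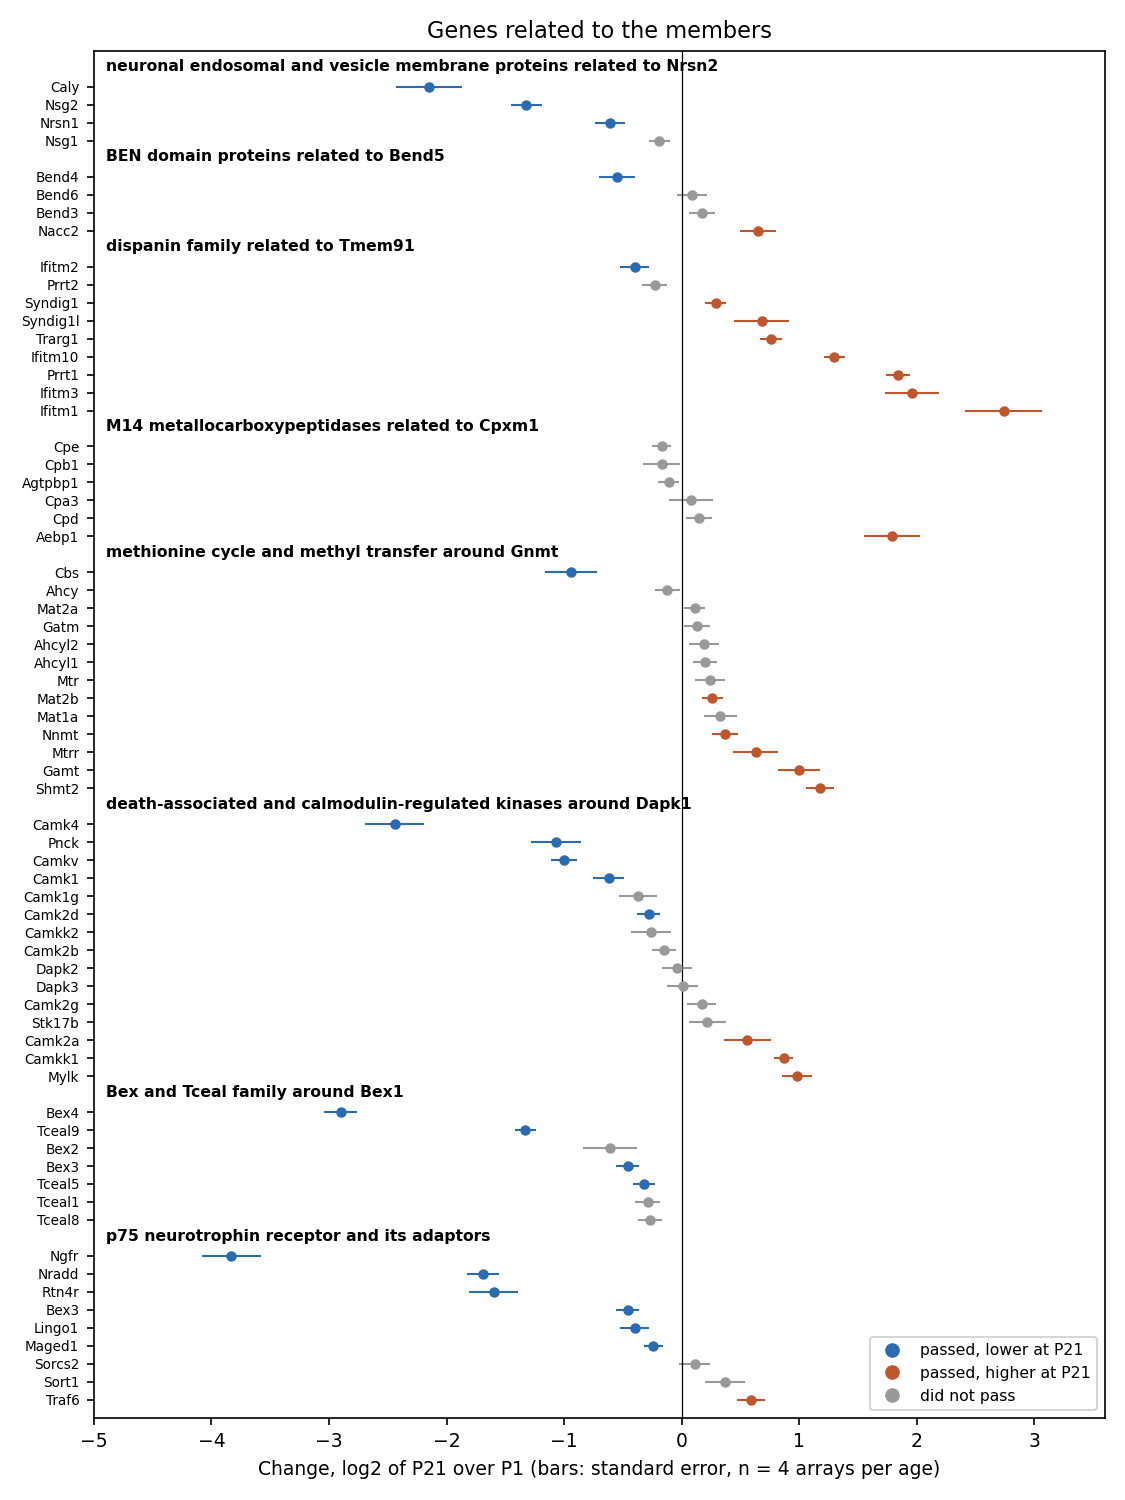
Change of each tested relative (x axis, log2 of P21 over P1, bars are standard errors) grouped by the family of the gene it is related to, in blue where it passed as lower at P21, in orange where it passed as higher and in grey where it did not pass. No point of the Bex and Tceal group lies to the right of 0, whereas most points of the dispanin family do.

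Around Nrsn2, 3 of 4 neuronal endosomal and vesicle membrane genes fell and the median was -0.97. Caly fell from 4343 ± 428 to 1040 ± 443 (change -2.15 ± 0.28, adjusted p = 0.000275), and as above P21 replicate 3 read highest (1567). Nsg2, of a family of neuronal endosomal sorting proteins, fell by 1.32 ± 0.13 (adjusted p = 4.16e-05). Nrsn1, the closest relative of Nrsn2, went from 3699 ± 154 to 2441 ± 419 (change -0.61 ± 0.13, adjusted p = 0.00401), and it kept a signal well over the filter level where Nrsn2 did not. Nsg1 read 7516 ± 310 and 6588 ± 438 and did not pass (adjusted p = 0.115).

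Around Tmem91 the dispanin family went the other way, with 7 of 9 rising, 1 falling and a median of 0.76. With the replicate block 6 rose, Syndig1l no longer passing (adjusted p = 0.0502). With no filter and on centring 5 rose, Syndig1 and Syndig1l no longer passing. With 1 array left out between 5 and 7 rose. Syndig1 (0.29 ± 0.09, adjusted p = 0.0301) lost its call in 5 of those fits and Syndig1l (0.68 ± 0.23, adjusted p = 0.0448) in 6. Prrt1 (also SynDIG4), a protein associated with AMPA receptors, read 827, 852, 755 and 751 at P1 and 3173, 2519, 2966 and 2940 at P21 (change 1.84 ± 0.10, adjusted p = 1.81e-06), although its second probe set did not pass (-0.16, adjusted p = 0.453). Ifitm10 rose from 2094 ± 135 to 5186 ± 382. Among the interferon-induced membrane genes Ifitm3 rose by 1.96 ± 0.23 and Ifitm1 by 2.74 ± 0.33, at least 1.81-fold. The summed level of 6 fibroblast and meningeal markers, all above the filter level on some array of each age, rose beside these 2 genes from between 7468 and 11477 at P1 to between 12698 and 27578 at P21, and its part in the result was not tested. The member that fell, Ifitm2 (-0.40 ± 0.12, adjusted p = 0.0274), lost its call when P1 replicate 1 or 2, or P21 replicate 1, 3 or 4, was left out (adjusted p between 0.0563 and 0.0699), and the close similarity of the Ifitm1, Ifitm2 and Ifitm3 transcripts leaves their probe sets uncertain.

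Around Dapk1, 5 of 15 death-associated and calmodulin-regulated kinase genes fell and 3 rose (median -0.15). With the replicate block the counts were 6 and 2, Camk1g being added to the falls (adjusted p = 0.0238) and Camk2a lost from the rises (adjusted p = 0.0672). With 1 array left out between 4 and 5 fell and between 2 and 3 rose. Camk2d (-0.28, adjusted p = 0.0454) lost its call as a fall in 7 of those fits, and Camk2a (0.56, adjusted p = 0.0471) its call as a rise in 5. The nearest relatives did not pass, Dapk3 reading 2574 ± 344 and 2590 ± 341 (change 0.01 ± 0.13) and Dapk2 313 ± 40 and 304 ± 41.6 (-0.04 ± 0.13), the latter close to the filter level. Camk4, a nuclear calmodulin-dependent kinase, fell from 634 ± 47.1 to 110 ± 43.3 (adjusted p = 5.95e-05), at least 2.23-fold. Pnck, another kinase of the calmodulin-dependent family, fell by 1.07 ± 0.21 (adjusted p = 0.00325). Camkv, a kinase-like protein of synapses, fell by 1.00 ± 0.11, with its second probe set at -2.06. Mylk, the myosin light chain kinase abundant in smooth muscle, rose from 1684 ± 217 to 3344 ± 428 (adjusted p = 0.00031).

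Around Bex1, 4 of 7 Bex and Tceal genes fell, the other 3 did not pass and the median was -0.46. With the replicate number as a block all 7 fell, Bex2, Tceal1 and Tceal8 being added (adjusted p = 0.0397, 0.0446 and 0.0354), as all did with arrays centred on their medians. Bex4 came closest to Bex1, from 3703, 3742, 4114 and 4157 at P1 to 509, 516, 663 and 398 at P21 (change -2.90 ± 0.14, adjusted p = 1.01e-06), and its groups did not overlap. Tceal9 fell by 1.33 ± 0.09 (adjusted p = 6.02e-06), and Bex3, which also binds the p75 receptor, by 0.46 ± 0.10 (adjusted p = 0.00506). Tceal5 fell by 0.32 ± 0.09 (adjusted p = 0.0154), a call lost without P1 replicate 3 (adjusted p = 0.0510).

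Bex2, the closest relative of Bex1, read 3366 ± 554 and 2268 ± 748 on its own probe set and did not pass (change -0.61 ± 0.23, adjusted p = 0.0605), with overlapping groups. A further probe set that the platform annotation gives to both Bex1 and Bex2 stayed outside the rule. It read 6290 ± 100 at P1 and 6115 ± 152 at P21 (change -0.04 ± 0.09), the 98.5th percentile or above on every array, so it did not show the 5.60-fold fall of the Bex1 probe set. Which transcript it reports cannot be told apart, and the closeness of the 2 genes makes the Bex1 value itself uncertain to that extent.

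**Figure D4:**
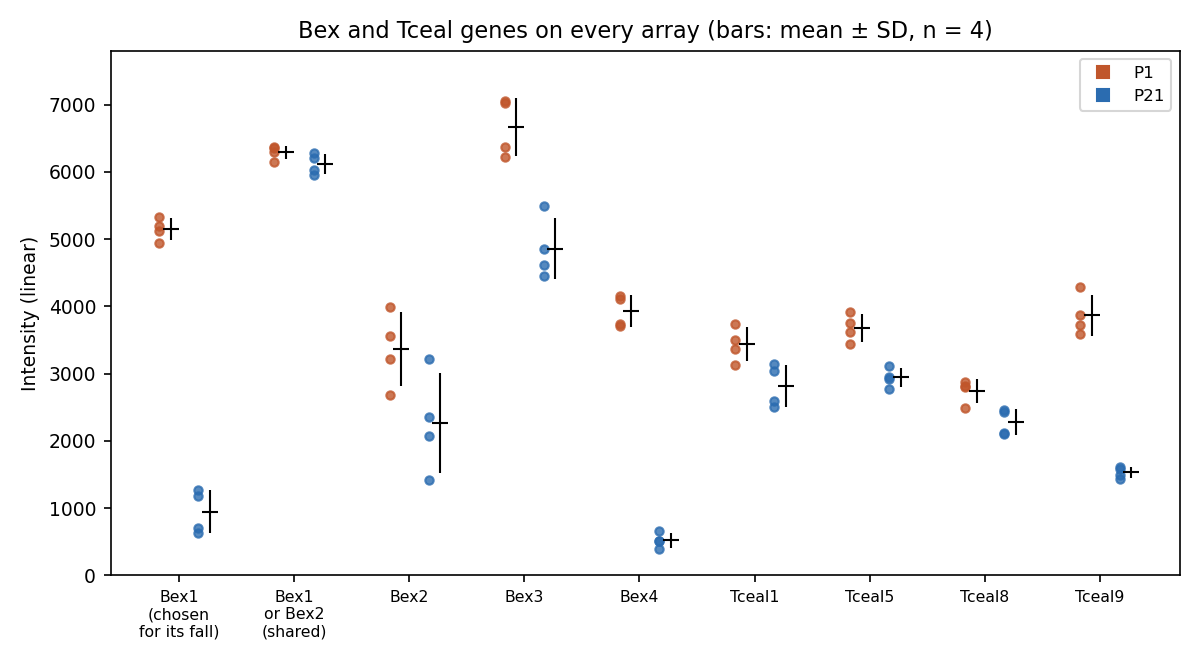
Linear intensity (y axis) of Bex and Tceal probe sets on every array, P1 in orange and P21 in blue, with mean ± SD beside the points (n = 4). Bex1 and Bex4 show wide gaps between the ages, and the probe set shared by Bex1 and Bex2 stays near 6290 and 6115.

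The gene of the p75 receptor, to which Bex1 binds, also fell. Ngfr, as it is named, read 3728, 3088, 3925 and 4181 at P1 and 244, 224, 422 and 157 at P21 (change -3.83 ± 0.25, adjusted p = 3.95e-06), with 3 of the 4 P21 readings under the filter level. Of 9 genes of the receptor and its adaptors, 6 fell, 1 rose and the median was -0.40. With no filter 4 fell, Maged1 and Lingo1 no longer passing. With quantile normalization 5 fell, Maged1 no longer passing. With 1 array left out between 4 and 6 fell. Maged1 (-0.24 ± 0.08, adjusted p = 0.037) lost its call in 6 of those fits and Lingo1 (-0.40 ± 0.12, adjusted p = 0.0237) in 4. The second Lingo1 probe set did not pass (-0.14, adjusted p = 0.271). Nradd, a receptor-like relative of p75, fell by 1.69 ± 0.14, and its second probe set by 0.31. Rtn4r, the Nogo receptor that pairs with p75, fell from 625 ± 132 to 198 ± 59.8, at least 2.17-fold. Other Rtn4r probe sets changed by -1.61 (adjusted p = 0.000241) and by only -0.46 (adjusted p = 0.0455). Traf6, a ubiquitin ligase that binds p75, rose by 0.59 ± 0.12 (adjusted p = 0.00334). Bex3 is counted in this list and in that of Bex1.

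Around Gnmt, 5 of 13 genes of the methionine cycle and methyl transfer rose and 1 fell (median 0.24). With the replicate block 4 rose, Mat2b no longer passing (adjusted p = 0.0501), and its call was also lost when any 1 of the 8 arrays was left out (adjusted p between 0.0515 and 0.119). Shmt2, the mitochondrial serine hydroxymethyltransferase, rose from 1185 ± 163 to 2694 ± 235 (adjusted p = 6.48e-05). Gamt, which consumes S-adenosylmethionine to make creatine, rose by 1.00 ± 0.18 (adjusted p = 0.00225). Cbs, which draws homocysteine out of the cycle, fell by 0.94 ± 0.22 (adjusted p = 0.00706), and 2 of its 4 P21 readings were under the filter level. Mtrr, which reactivates methionine synthase, rose by 0.63 ± 0.19 (adjusted p = 0.0283), a call lost on leaving out P1 replicate 1 or 3, or P21 replicate 3 or 4 (adjusted p between 0.0587 and 0.0727), on centring (0.0731) and with no filter (0.0553). The count of rises was 3 without P1 replicate 1 or P21 replicate 2, 3 or 4, and 2 without P1 replicate 3. Ahcy, which clears the product of all such methyl transfers, read 2347 ± 171 and 2163 ± 237 and did not pass.

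Only some listed relatives of Cpxm1 and Bend5 were tested, 6 of 20 metallocarboxypeptidase genes and 4 of 7 BEN domain genes. Cpxm2 and Cpz were not among those tested. Of 6 metallocarboxypeptidase genes tested, 1 rose, 5 did not pass and the median was -0.01. Aebp1, a secreted relative made by fibroblasts, rose from 174 ± 35.9 to 667 ± 272, at least 2.42-fold (adjusted p = 0.000365), beside the rise of the fibroblast marker sum given above. Cpe, the carboxypeptidase that trims neuropeptides, read 7746 ± 240 and 6894 ± 103 and did not pass (adjusted p = 0.120). Of 4 BEN domain genes, Bend4 fell by 0.55 ± 0.15 (adjusted p = 0.0165), at least 1.25-fold, Nacc2 rose by 0.65 ± 0.15 (adjusted p = 0.00774) and Bend3 and Bend6 did not pass.

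Markers of other cells moved in both directions between the ages. The summed level of 8 interneuron markers fell from between 7478 and 8492 at P1 to between 2908 and 4536 at P21, with Gad2 and Slc6a5 under the filter level on all arrays of both ages and Tac1 and Pdyn on all P21 arrays. That of 6 markers of dividing cells fell from between 5946 and 6322 to between 3942 and 5722, with Mcm6 under the filter level on all P21 arrays. Sums of 9 oligodendrocyte markers rose from between 8990 and 11002 to between 36782 and 39180, with Mobp, Mog and Opalin under the filter level on all P1 arrays. Sums of 10 astrocyte, 9 microglial and 8 vascular markers rose too, to between 25827 and 30477, between 4684 and 8302 and between 5198 and 10321 at P21, from at most 23693, 3408 and 5169 at P1. Their part in the falls of the 7 genes was not tested.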

How the data were processed

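Intensities of laser-captured motoneurons were analysed for 4 P1 and 4 P21 arrays. The table the authors deposited holds 1 linear intensity per probe set and array, with between 66 and 250 values below 0 per array and array medians between 323 and 416. Probe summary, background correction and normalization are not given in the sources used here. Amplification primed at poly(A) tails, per the labels' protocols, favours 3′ ends. For arrays, their number limits the precision.

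Probe sets were named by the platform annotation. Of 20826 with 1 symbol, 20758 were found by gene identifier in the GRCr8 table and 0 symbols changed. Negative intensities were raised to 0, a constant of 16 was added, and the log2 values were fitted with limma 3.58.1 in R 4.3.3 (lmFit, eBayes; P21 against P1, no covariate), with Benjamini-Hochberg adjustment. Kept probe sets exceeded the 40th percentile of their array on at least 4 of 8 arrays (19155). Member changes come from the same fit without that filter. The fit was tested on simulated data. The labels name no batch, and p-values measure the spread between pools.

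Members, families and markers were chosen with earlier results of these data known. Named relatives were all that passed in a family, or the 4 with the largest change where more did. Ifitm2, Syndig1, Maged1, Lingo1, Camk2d, relatives whose call changes with the block and a few that did not pass were named after their values were seen. The 2 genes most like each member were taken by Pearson's r. Alternatives were another pseudocount, filter, normalization, centring, a replicate block, the mean over probe sets and each array left out.

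The titles share replicate numbers between the ages, and deviations of same-numbered arrays correlated at 0.514, 0.321, 0.558 and 0.15, so the numbers may pair the arrays. The fit reported has no pairing, and the replicate block is an alternative whose value is given where it changes a call. Besides these values, the basis is the design text, where each litter gave animals to both ages, although it ties no number to a litter.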

Additional observations from a re-analysis of the deposited data

Results flagged for a closer look

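For Bend5, P1 replicate 1 read 568, apart from the other 3 P1 arrays at 789 to 798. For the dim Tmem91 probe set, P21 replicate 4 read 72.9, apart from the other 3 P21 arrays at 84.5 to 85.9, all under the filter level. These 2 stood out among 18 groups of 4 arrays checked, and chance marks about 1 in 20.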

How the results depend on the processing

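The 9 member probe sets stayed lower at P21 under another pseudocount, quantile normalization, centring, the replicate block and each array left out. Nothing can be read from that kept direction, since falls on these same arrays chose the genes. The median change of the member probe sets, -4.08, was -3.28 with a pseudocount of 64, and between -4.46 and -3.98 with 1 array left out. With 64, 7 of the 9 moved by at least their SD within an age on the log2 scale, and 2 did not. Bend5 went from -4.54 to -3.28, Cpxm1 from -4.29 to -3.50 and Gnmt from -4.08 to -2.78. The standard errors given with the changes do not cover this choice of constant. The replicate block left the median at -4.08 and changed the called relatives from 38 to 39 (4 gained, 3 lost) and the called probe sets from 7329 to 8805. With 1 array left out, 30 to 35 relatives and 5985 to 7419 probe sets passed. Of the called probe sets, the lower ones went from 45.6% to 61.4% on centring. Falls in the Bex and Tceal family went from 4 to 7 with the block and on centring. The other counts that moved by over 1.5 times were the following. Dispanin falls went from 1 to 0 with no filter and with quantile normalization. BEN domain falls, methionine falls and carboxypeptidase rises each went from 1 to 0 at the 60th percentile. Bend4, Cbs and Aebp1 did not pass that filter, so they were not tested there. Carboxypeptidase rises and methionine falls each went from 1 to 2 with no filter. Methionine rises went from 5 to 3 with no filter and to 2 on centring. The p75 rises went from 1 to 2 with the mean of the probe sets. The 3 calls lost with the block were Syndig1l, Mat2b and Camk2a.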
